A study of Homo sapiens with 4 samples.

Results

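Amino acid response genes were examined in 4 samples of MCF10A, a human breast epithelial line that grows without forming tumours. The set holds 34 genes listed by symbol: the regulators of the response, enzymes of serine, asparagine and one-carbon metabolism, amino acid transporters, and cytosolic tRNA synthetases. A gene was read from the probe set annotated to its symbol alone, and from the probe set with the highest mean over the arrays where it had several. All 34 were found among 20910 genes with such a probe set, 33 with 1 probe set and DDIT3 with 2. The members were chosen by function and not by their values in a comparison, but with earlier results of these data known.

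Each sample carried 1 stable transfection and was measured on 1 array. LacZ, which encodes a bacterial enzyme, served as the control. The others carried Her2 (ERBB2, a growth factor receptor kinase), PIK3CA with the H1047R change (an activated catalytic subunit of phosphoinositide 3-kinase), or Her2 together with that PIK3CA. All grew untreated in the same medium, and the labels give no drug, starvation or time course. The sources used here do not say whether a transfected line was a pool or a clone. With 1 array per group there is no spread between replicates, no test compares any groups, and an array cannot be told apart from its transfection. The study set out to find genes controlled by Her2, by mutant PIK3CA, or by the pair.

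When amino acids run short, uncharged tRNA activates the kinase GCN2 (EIF2AK4), which phosphorylates the translation factor eIF2. Most protein synthesis then slows, while translation of the transcription factor ATF4 increases. ATF4 pairs with C/EBP family proteins on short DNA elements of genes that make, import and charge amino acids. Endoplasmic reticulum stress reaches ATF4 through another eIF2 kinase, PERK (EIF2AK3), and growth signalling through mTORC1 can raise ATF4 as well.

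Values are deposited log2 values, so 1 unit is 2-fold. They are compared for the same gene between arrays, never between genes. Over all probe sets the array medians lay between 1.13 and 1.17, and values near that level are near background. Counts below use genes whose mean over the 4 arrays was at least 4, which was met by 31 members and by 5273 genes in all. ATF3, DDIT3 and VLDLR lay below it and are given by their values. ERBB2, which checks the labels, went against them: it read 5.96 on the array labelled LacZ, 4.29 on that labelled Her2, 8.48 on that labelled mutant PIK3CA and 7.39 on that labelled both. Its probe set is annotated to MIR4728 as well. Arrays are therefore named by their labels, which carry this doubt, most of all those of the arrays labelled Her2 and mutant PIK3CA. Values for a gene are given in the order LacZ, Her2, mutant PIK3CA, both.

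Amino acid response genes were lowest on the array labelled both. Of the 31 counted members, 25 had their lowest value of the 4 arrays there, where 31% of all counted genes did. On the array labelled mutant PIK3CA, 22 members had their highest value, against 25% of all counted genes. Relative to each of the other 3 arrays, that labelled both read lower by 2-fold or more for 5 members: the transporter pair SLC7A5 and SLC3A2, the glutathione-degrading enzyme CHAC1, the pseudokinase TRIB3 and the serine synthesis enzyme PHGDH. Such a value was found for 2.94% of all counted genes. An exchange of the labels Her2 and mutant PIK3CA would leave these counts for the array labelled both as they are.

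**Figure D1:**
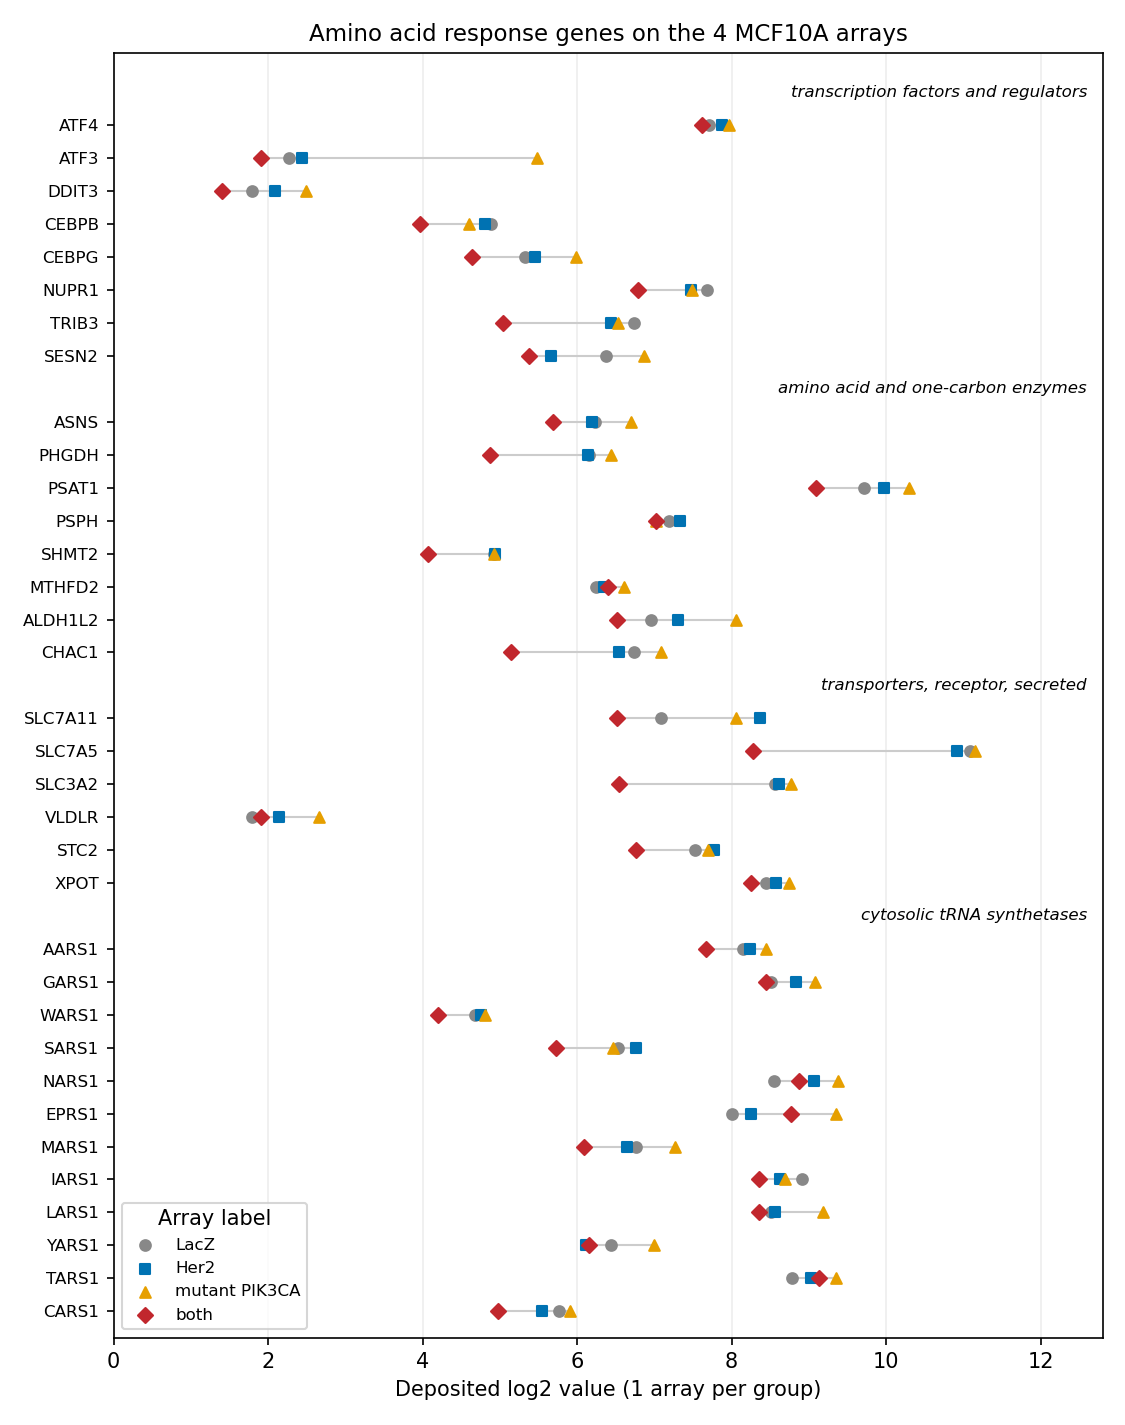
Deposited log2 values (horizontal axis) of the 34 members, grouped by role, with 1 point for each of the 4 arrays and a grey line over their range. The array labelled both (red diamonds) holds the lowest point for 25 of the 31 counted members, and SLC7A5 and SLC3A2 have wide gaps between it and the other arrays.

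The comparison of the arrays labelled both and mutant PIK3CA held the most 2-fold differences among members. There 12 members were at least 2-fold lower and 0 higher, while 7.55% of all counted genes were lower and 6.81% higher. The median over members was -0.84, against -0.01 over all counted genes. Of the members, 30 of 31 lay below 0, where 50.6% of all counted genes did. The exception was PSPH, with a difference of 0.00. Near the 2-fold bound, ASNS lay just inside it, and CARS1 and STC2 just outside at -0.93 each.

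Between the arrays labelled both and Her2, 8 members were at least 2-fold lower and 0 higher, where 5.44% of all counted genes were lower and 5.86% higher. The median over members was -0.56. Against the LacZ array, 6 members were at least 2-fold lower and 0 higher, where 9.96% of all counted genes were lower and 10.2% higher. That median was -0.56 too, beside 0.01 over all counted genes. Below 0 lay 27 of 31 members, or 26 under quantile normalization, where GARS1 turned. Of all counted genes, 49.3% lay below 0 as deposited. These 3 comparisons share the array labelled both, so they are not independent of each other.

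Neither array with only 1 introduced gene showed a shift of members below LacZ. On that labelled mutant PIK3CA most members lay above LacZ, though few by 2-fold. For the label Her2, 1 member (SLC7A11) was at least 2-fold higher and 0 lower, where 2.37% of all counted genes were higher and 2.2% lower. The members had a median of 0.08. For the label mutant PIK3CA, 2 members (EPRS1 and ALDH1L2) were at least 2-fold higher and 0 lower, where 5.08% of all counted genes were higher and 3.66% lower. Here the median was 0.29, beside 0.03 over all counted genes, and 25 of 31 members lay above 0. The other 6 lay below 0, as did 47.3% of all counted genes. The share of members past 2-fold was near that of all genes for both labels.

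Departure from additivity is the value on the array labelled both, minus the values for Her2 and for mutant PIK3CA, plus the LacZ value. It was below 0 for all 31 counted members as deposited, and for 30 under quantile or cyclic loess normalization, where IARS1 (-0.05 as deposited) turned to 0.03 and 0.04. The median was -0.88, while 52.6% of all counted genes lay below 0, with a median of -0.04. At least 2-fold below additivity were 12 members, and 0 were as far above it. Over all counted genes 7.97% lay that far below and 6.9% that far above. This measure reuses the arrays of the comparisons above and has no replicate of its own.

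**Figure D2:**
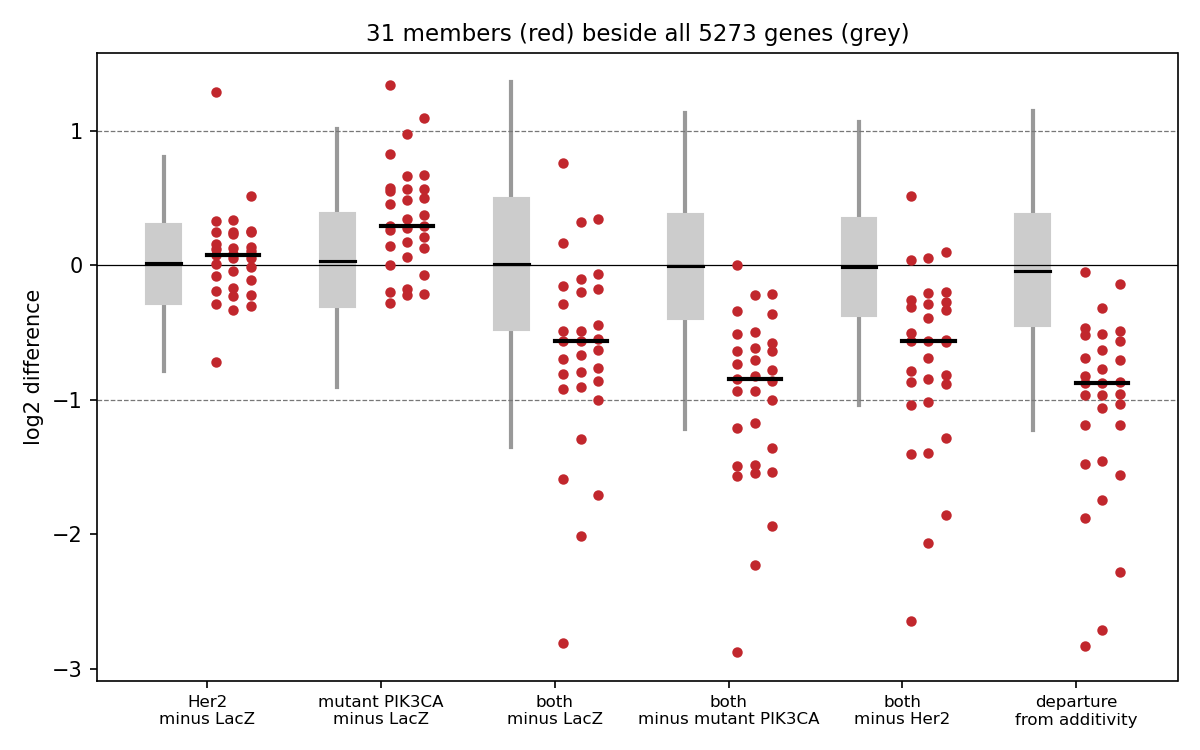
Log2 differences (vertical axis) in 6 comparisons: red points are the 31 counted members with their median as a black bar, grey boxes span the central 50% and grey lines the central 90% of the 5273 counted genes, and dashed lines mark 2-fold. In the 3 comparisons that hold the array labelled both against another array, the member medians lie at -0.56, -0.84 and -0.56.

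Of the 6 counted regulators, 3 were at least 2-fold lower when the array labelled both was set against that labelled mutant PIK3CA, with a median of -1.03. Over all counted genes 7.55% were that much lower, with a median of -0.01. The messenger of ATF4 itself differed little. ATF4 read 7.71, 7.87, 7.97 and 7.61, a range of 0.36 over the 4 arrays. ATF4 is controlled to a large extent at translation, which these arrays do not measure. TRIB3, a pseudokinase induced by ATF4 that dampens AKT and ATF4 itself, read 6.74, 6.44, 6.53 and 5.04. Its values on 3 arrays lay within about 0.3 of each other, and that of the array labelled both lay 1.71 below LacZ, a 3.26-fold difference. SESN2, a leucine-binding inhibitor of mTORC1, read 6.38, 5.66, 6.86 and 5.37. The array labelled both was thus 1.49 below that labelled mutant PIK3CA but only 0.28 below that labelled Her2.

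The C/EBP partners of ATF4 were lowest on the array labelled both as well. CEBPG, a bZIP protein that dimerises with ATF4, read 5.33, 5.45, 5.99 and 4.63. CEBPB, a C/EBP factor of many stress and differentiation responses, read 4.89, 4.81, 4.61 and 3.97. NUPR1, a small stress-induced chromatin protein, read 7.69, 7.47, 7.49 and 6.78. For CEBPB and NUPR1 the array labelled both lay less than 2-fold below every other array, and for CEBPG it was more than 2-fold below only that labelled mutant PIK3CA.

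ATF3, a stress-induced repressor of the same bZIP family, stood apart in its pattern. It read 2.28, 2.44, 5.49 and 1.91, so it was near the low end of the scale on 3 arrays and high on that labelled mutant PIK3CA. The difference between that array and LacZ was 3.21. From it to the array labelled both the difference was -3.57, an 11.9-fold step. DDIT3 (CHOP), a pro-apoptotic partner of the C/EBP family, read 1.79, 2.08, 2.50 and 1.41, with the same order of arrays at low values. Its other probe set read 0.54, 0.81, 0.48 and 0.24, and there the array labelled Her2 was highest. ATF3 and DDIT3 were not in the counts above, and low values understate differences.

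The DNA element bound by ATF4 and C/EBP dimers was searched as TGATGNAA on both strands, in the 250 bases before each RefSeq start (GRCh38.p14) of protein-coding genes. Starts were in the table for 27 of the 34 members, and 7 of these 27 held a match: ATF3, CEBPG, ASNS, CHAC1, AARS1, GARS1 and IARS1. Of all 15843 genes in the table, 3.16% held a match, against 25.9% of these members. The members were listed as genes of this response and the motif was chosen after the values were seen, so this share is no independent result. Among lists outside the set, it was 15.4% for other amino acid transporters in the table, SLC1A5 included. For other ATF4 targets and for other folate enzymes it was 14.3% each. It lay between 6.67% and 8.33% for endoplasmic reticulum chaperones, mitochondrial synthetases and eIF2 kinases and factors. For other cytosolic synthetases and for genes by which mTORC1 senses amino acids it was 0. The windows are shown because their genes span all the functional classes described here except the transporters. They are printed 5′ to 3′ in the direction of the gene with the match in capitals, and a match on the opposite strand reads as the reverse complement. Windows of 30 bases are given where another start of the gene lies further upstream.

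The CEBPG match starts 42 bases before the start at chr19:33374060-33374089 (plus strand), that of ASNS 68 bases before it at chr7:97872458-97872487 (minus strand), and that of GARS1 33 bases before it at chr7:30594834-30594863 (plus strand). ATF3 has its match 191 bases before the start at chr1:212565186-212565253 (plus strand). CHAC1 has it at 209 bases, at chr15:40953232-40953299 (plus strand), AARS1 at 187 bases, at chr16:70289656-70289723 (minus strand), and IARS1 at 13 bases, at chr9:92293698-92293740 (minus strand).
CEBPG: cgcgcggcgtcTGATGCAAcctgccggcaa
ASNS: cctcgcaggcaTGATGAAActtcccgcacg
GARS1: ttacgcggcgaTTTCATCAtgctccgagcc
ATF3: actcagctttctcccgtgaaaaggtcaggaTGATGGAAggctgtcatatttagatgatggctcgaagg
CHAC1: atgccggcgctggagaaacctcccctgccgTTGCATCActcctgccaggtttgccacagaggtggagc
AARS1: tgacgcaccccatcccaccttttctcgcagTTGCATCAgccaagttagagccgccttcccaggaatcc
IARS1: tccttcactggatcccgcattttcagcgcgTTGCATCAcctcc
In CHAC1, AARS1 and IARS1 the letters in capitals are the same, and CEBPG carries their reverse complement. Of these 7 genes, CHAC1, CEBPG and ASNS differed by 2-fold or more between the arrays labelled both and mutant PIK3CA, as did ATF3 outside the counts, while AARS1, GARS1 and IARS1 were lower by 0.78, 0.64 and 0.34. Of the 5 members in the table that are transporters, receptor or secreted proteins, or export tRNA, 0 held these letters in this window. A match describes letters only and does not show binding.

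The amino acid enzymes differed among themselves, with 5 of 8 at least 2-fold lower for both minus mutant PIK3CA and a median of -1.11. The share and median over all counted genes were 7.55% and -0.01. CHAC1, which breaks down glutathione and is among the more ATF4-responsive genes known, read 6.73, 6.54, 7.08 and 5.14. The array labelled both was lower than that labelled mutant PIK3CA by 1.94, a 3.84-fold difference, and than LacZ by 1.59. ASNS, which makes asparagine from aspartate, read 6.24, 6.19, 6.70 and 5.69, a range of 1.00. It was therefore lowest on the array labelled both, but by 0.55 against LacZ.

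In the serine pathway, the enzymes did not move together. PHGDH, the entry step from glycolysis and a gene amplified in some breast cancers, read 6.16, 6.15, 6.44 and 4.87. PSAT1, the transaminase of the following step, read 9.72, 9.97, 10.29 and 9.09. PSPH, the phosphatase of the last step, read 7.19, 7.33, 7.02 and 7.02. Thus on the array labelled both, PHGDH was lower than on that labelled mutant PIK3CA by 1.57 and PSAT1 by 1.21, whereas PSPH did not differ and ranged over 0.31 in all.

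Mitochondrial one-carbon enzymes use serine to load folate. SHMT2, which takes the carbon from serine, read 4.93, 4.94, 4.93 and 4.07, the same on 3 arrays and 0.86 to 0.87 lower on that labelled both. MTHFD2, the next enzyme, read 6.24, 6.35, 6.61 and 6.40. Its value on the array labelled both was above LacZ, so it did not share the pattern of SHMT2. ALDH1L2, which releases the carbon as carbon dioxide, read 6.96, 7.30, 8.06 and 6.52. It was higher on the array labelled mutant PIK3CA than on LacZ by 1.09 and lower on that labelled both than on that labelled mutant PIK3CA by 1.54.

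SLC7A5 and SLC3A2 had the widest ranges over the arrays among the counted members. SLC7A5 (LAT1), the light chain of the main importer of leucine and other large neutral amino acids, read 11.08, 10.92, 11.15 and 8.27. The values on 3 arrays spanned about 0.2, and the array labelled both lay 2.81 below LacZ, 2.87 below that labelled mutant PIK3CA and 2.64 below that labelled Her2. These are differences of 7.01-fold, 7.33-fold and 6.25-fold. Among all 5273 counted genes, 33 were as low or lower against LacZ, this one included, and 19 against the array labelled Her2.

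SLC3A2 (4F2 heavy chain, CD98), which carries SLC7A5 and SLC7A11 to the membrane, was likewise low on 1 array alone. It read 8.56, 8.61, 8.77 and 6.54, so the array labelled both was 4.04-fold below LacZ and 4.68-fold below that labelled mutant PIK3CA. SLC7A11 (xCT), the light chain of the cystine-glutamate exchanger that feeds glutathione synthesis, read 7.08, 8.37, 8.06 and 6.52. Unlike its partner, it was 1.29 above LacZ on the array labelled Her2 and 0.98 above it on that labelled mutant PIK3CA. On the array labelled both it was 0.56 below LacZ. The departure from additivity of -2.83 was the lowest of the counted members, followed by SLC7A5 at -2.71 and SLC3A2 at -2.28.

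The remaining members outside the synthetases differed less. STC2, a secreted glycoprotein induced by stress, read 7.52, 7.78, 7.69 and 6.76, and the array labelled both was 2.02-fold below that labelled Her2. XPOT, the exporter of tRNA from the nucleus, read 8.45, 8.58, 8.74 and 8.24. It too was lowest on the array labelled both, within a range of 0.50. VLDLR, a lipoprotein receptor that ATF4 can induce, read 1.80, 2.14, 2.66 and 1.91, low on every array.

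**Figure D3:**
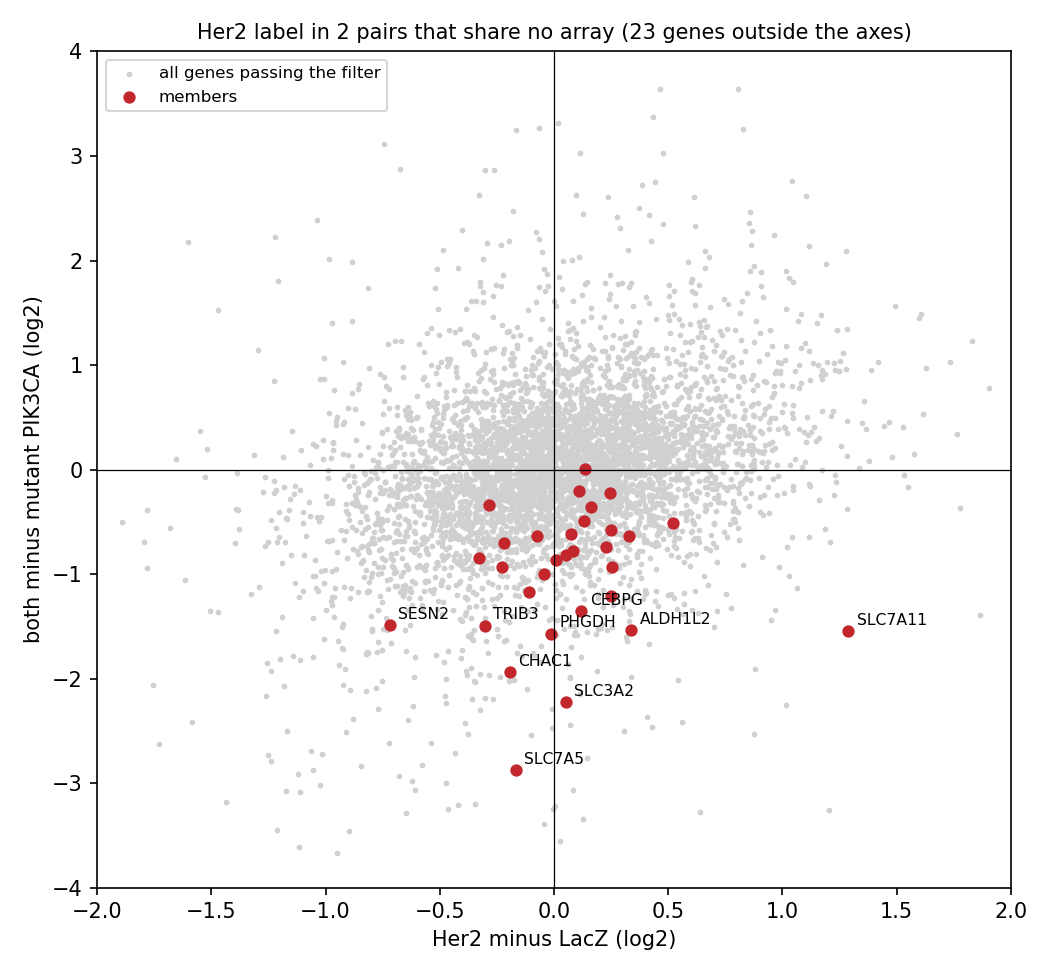
Log2 difference for the label Her2 without mutant PIK3CA (horizontal axis) and with it (vertical axis), in pairs of arrays that share no array. Red points are the 31 counted members and grey points all counted genes, of which 23 lie outside the axes. Most members lie near 0 on the horizontal axis, where SESN2 is lowest at -0.72, and 30 of 31 lie below 0 on the vertical one. SLC7A11 is at 1.29 and -1.54.

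Cytosolic tRNA synthetases attach amino acids to their tRNAs, and 12 of them are members, all of which were counted. On the array labelled both they were lower than on that labelled mutant PIK3CA in 12 of 12 cases. The differences ran from -1.17 to -0.22 with a median of -0.69, so 1 synthetase, MARS1, passed 2-fold. A count of 1 in 12 is near the 7.55% of all counted genes at least 2-fold lower there. Against LacZ 9 of 12 were lower, with a median of -0.39 and differences from -0.81 to 0.76. On the array labelled mutant PIK3CA, 10 of 12 were higher than on LacZ, with a median of 0.53. Of all counted genes, 50.6% were lower on the array labelled both than on that labelled mutant PIK3CA, and 49.3% than on LacZ. On the array labelled mutant PIK3CA, 47.3% of all counted genes were below LacZ, as were 2 of 12 synthetases.

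The synthetases followed different orders of arrays. MARS1 (methionine) read 6.76, 6.65, 7.26 and 6.09, and CARS1 (cysteine) 5.77, 5.54, 5.91 and 4.98, both lowest on the array labelled both. SARS1 (serine) read 6.53, 6.76, 6.46 and 5.72, where the array labelled both was 2.05-fold below that labelled Her2. AARS1 (alanine) at 8.15, 8.23, 8.44 and 7.66 and WARS1 (tryptophan, also interferon-inducible) at 4.68, 4.76, 4.81 and 4.19 shared 1 order of arrays, with smaller steps.

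Another group of synthetases was highest on the array labelled mutant PIK3CA and close to LacZ on that labelled both. GARS1 (glycine) read 8.51, 8.84, 9.08 and 8.44, and LARS1 (leucine) 8.51, 8.56, 9.18 and 8.36. YARS1 (tyrosine) read 6.44, 6.11, 6.99 and 6.15, lowest on the array labelled Her2 by a small margin. IARS1 (isoleucine) was highest on LacZ instead, at 8.91, 8.63, 8.69 and 8.35.

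For 3 synthetases the array labelled both was above LacZ. EPRS1, the fused glutamate and proline enzyme, read 8.01, 8.25, 9.34 and 8.77. NARS1 (asparagine) read 8.55, 9.07, 9.38 and 8.87, and TARS1 (threonine) 8.78, 9.03, 9.35 and 9.13. In all 3, LacZ was lowest and the array labelled mutant PIK3CA highest. EPRS1 was 1.34 above LacZ there, the highest such difference among the counted members.

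Synthetases outside the set did not share the shift between the arrays labelled both and mutant PIK3CA. Of 11 listed cytosolic synthetase and scaffold genes, 8 were measured and 7 counted, and 0 of 7 were at least 2-fold different in either direction. Their median was 0.08, from FARSA (phenylalanine, alpha subunit) at -0.69 and QARS1 (glutamine) at -0.29 to AIMP1 (a scaffold protein) at 0.28 and RARS1 (arginine) at 0.45. Listed synthetase genes whose product acts in mitochondria alone had a median of 0.10 over 9 counted of 15 measured, with 0 past 2-fold. TARS2 at -0.54 and NARS2 at -0.07 were lowest, and MARS2 at 0.28 and RARS2 at 0.63 highest. The difference between these classes was not tested.

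**Figure D4:**
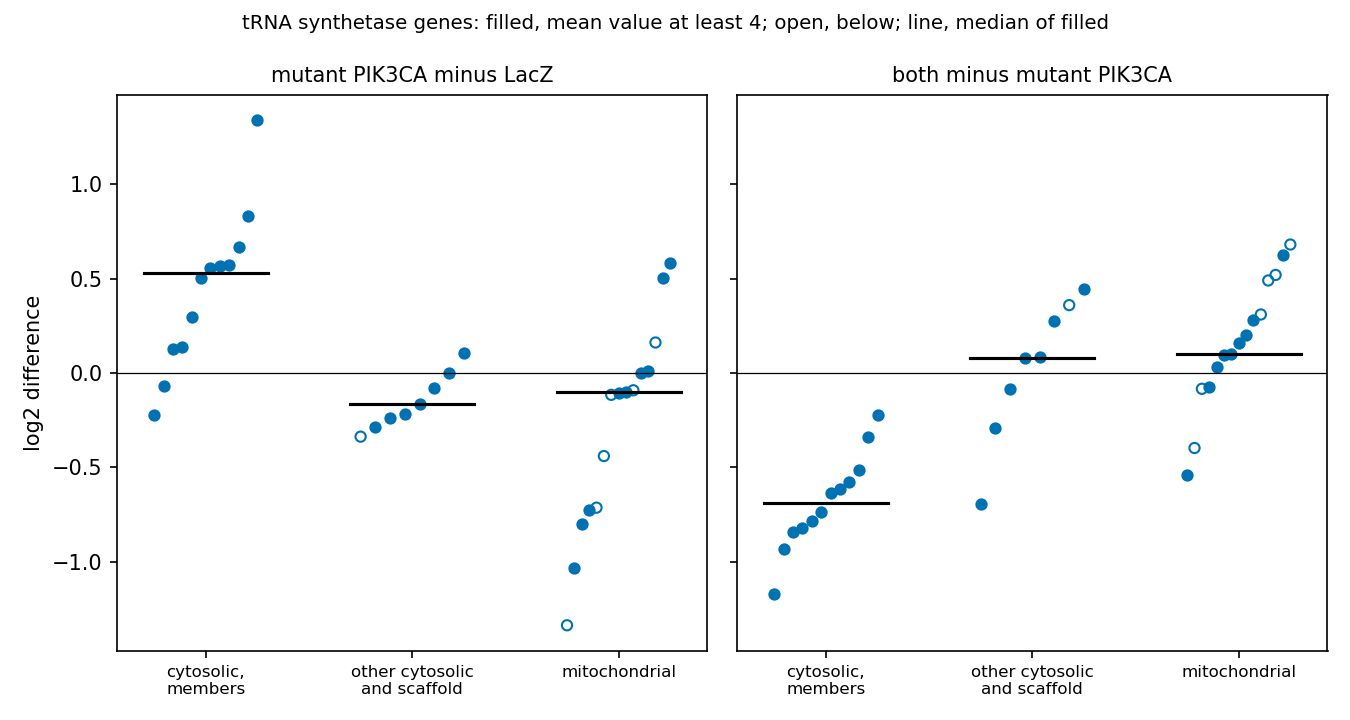
Log2 differences (vertical axis) of tRNA synthetase genes by class, for mutant PIK3CA minus LacZ (left) and both minus mutant PIK3CA (right). Each point is 1 gene, filled where its mean value was at least 4, and the line is the median of the filled points. On the right all 12 cytosolic members lie below 0 with a median of -0.69, while the medians of the other classes are 0.08 and 0.10. The classes were fixed with earlier results of these data known.

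Other amino acid transporters resembled SLC7A5 in part. Of 14 listed and measured, 8 were counted. For both minus mutant PIK3CA, 4 of 8 were lower by 2-fold or more, with 0 higher and a median of -0.85. The share lower over all counted genes was 7.55%, or 3.48% over all genes without the filter. Over all 14 measured, 4 were lower and the median was -0.30. SLC1A4, a carrier of alanine, serine and cysteine, differed by -2.15, and the glycine carrier SLC6A9 by -1.99. The glutamine carrier SLC1A5 (-1.64) and the cationic amino acid carrier SLC7A1 (-1.04) complete the count and were named after their values were seen. SLC1A5 read 8.51, 8.21, 8.63 and 6.99, so that only the array labelled both was low. Highest of the list were SLC38A2 at -0.29 and SLC36A4 at 0.16.

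Further genes known as ATF4 targets were mixed. Of 18 listed, 16 were measured and 8 counted, with 3 of 8 at least 2-fold lower, 0 higher and a median of -0.14. Over all 16 measured, 7 were lower and the median was -0.65, so this list depends on the filter. The share lower over all genes was 7.55% with the filter and 3.48% without it. PCK2, the mitochondrial PEPCK, differed by -2.02, EIF4EBP1, a translation repressor, by -1.35 and PYCR1, an enzyme of proline synthesis named after its value was seen, by -1.16. Highest were the mTORC1 inhibitor DDIT4 at 0.41 and ALDH18A1, the entry enzyme of proline synthesis, at 0.35. Folate enzymes outside the set had a median of -0.09 over 5 counted genes of 8 measured. MTHFD1L, the mitochondrial step after MTHFD2, differed by -0.82 and the folate carrier SLC25A32 by -0.20, while MTHFD1 differed by 0.76 and TYMS, the thymidylate synthase of dividing cells, by 4.48.

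Genes upstream of ATF4 showed no common shift. Of 13 eIF2 kinases, phosphatase subunits and exchange factor subunits, all measured, 10 were counted, with 1 at least 2-fold lower, 2 higher and a median of 0.12. PPP1R15A (GADD34), the stress-induced subunit that reverses eIF2 phosphorylation and is itself known to respond to ATF4, read 5.55, 5.16, 6.31 and 4.39. Its difference was thus -1.92, and that of PPP1R15B, the constitutive subunit, -0.46. Higher were EIF2B3, a subunit of the exchange factor, by 1.43 and EIF2AK2 (PKR), the kinase activated by double-stranded RNA, by 1.02. EIF2AK4, the amino acid sensor GCN2 and named here for that role, read 5.21, 5.16, 5.06 and 5.78.

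Endoplasmic reticulum chaperones belong to another arm of the stress response. Of 15 listed, 14 were measured and 10 counted, with 1 at least 2-fold lower, 0 higher and a median of -0.26. For departure from additivity, however, 4 of 10 lay at least 2-fold below, with a median of -0.58, a share like that of the members. Over all counted genes 7.97% lay that far below. HERPUD1, a protein of degradation at the endoplasmic reticulum, differed by -1.19 and the transcription factor XBP1 by -0.90, whereas PDIA6 and CALR differed by 0.22 and 0.24. The endoplasmic reticulum stress element, CCAAT and CCACG with 9 bases between them, searched on both strands, was found in the same window of 6 of these 15 genes, of 0 of the 27 members in the table, and of 0.133% of all genes. The list was drawn from genes known for this arm, so that share is no independent result. Genes by which mTORC1 senses amino acids had 5 counted of 12 measured, 0 past 2-fold and a median of 0.20, from NPRL3 at -0.69 and RRAGC at -0.34 to RRAGA at 0.50 and SESN1 at 0.81. Over all 12 measured, 1 was at least 2-fold higher.

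**Figure D5:**
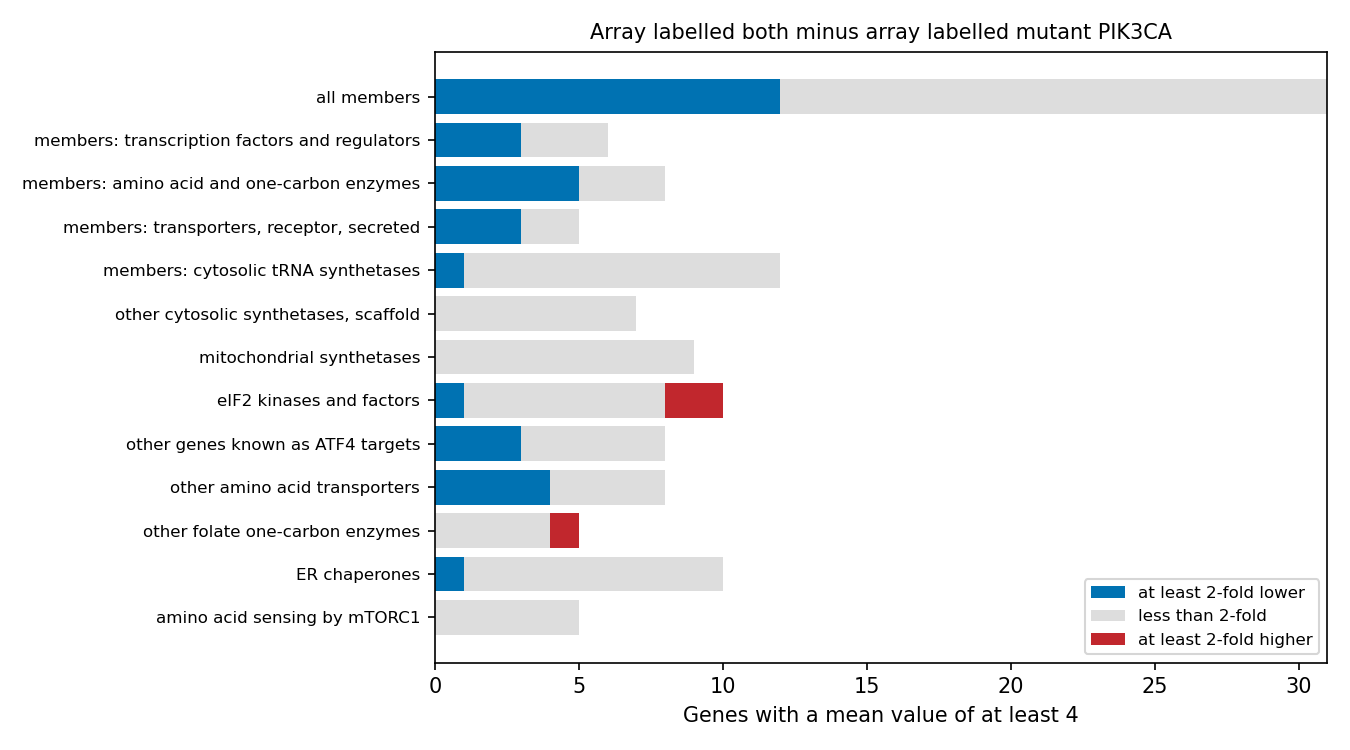
Number of counted genes (horizontal axis) in each list by their difference between the arrays labelled both and mutant PIK3CA: lower on the former by 2-fold or more (blue), closer than 2-fold (grey) or higher by 2-fold or more (red). The blue part holds 12 of 31 members and 4 of 8 other amino acid transporters, and it is empty for the other cytosolic and the mitochondrial synthetases, the folate enzymes and the mTORC1 sensing genes. Over all counted genes, 7.55% were lower and 6.81% higher.

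Markers of cell state moved with the array labelled both, and their part in these results was not tested. Of the basal markers of MCF10A, 6 of 10 were measured, with means of 7.26, 7.22, 7.93 and 6.86, and KRT5 read between 7.08 and 7.52 on all arrays, with KRT14 between 1.47 and 3.43. For both minus mutant PIK3CA the other 4 were lower by 2-fold or more: LAMB3 by 3.21, ITGA6 by 1.56, ITGB4 by 1.29 and EGFR by 1.19. KRT14, which was not counted, went the other way and was higher there by 1.19. The 5 basal markers counted had a median of -1.29 there, further below 0 than that of the members. The 7 measured of 8 epithelial junction markers had mean log2 values of 7.53, 6.73, 7.53 and 4.95, and CDH1 (E-cadherin) read 9.34, 8.94, 9.13 and 5.07. The 7 mesenchymal markers had means of 3.80, 4.72, 4.05 and 5.38. On the array labelled both, all 7 were above LacZ, with a median of 1.21. Against the array labelled Her2 their median was 0.10, and that of the 3 counted was -0.59. The 10 markers of dividing cells had means of 2.46, 2.30, 4.72 and 7.03, so they were highest where members were lowest, yet raised too on the array labelled mutant PIK3CA, where most members were highest. Fibroblast markers were measured for 5 of 7: COL1A1, COL1A2 and PDGFRB stayed at or below 2.24 on every array, while DCN and LUM read 5.06 and 6.26 on the array labelled both and at most 1.15 elsewhere. The list's means were 1.10, 0.99, 1.12 and 2.95. Luminal markers had means from 2.03 to 2.44 over 6 genes, and their Her2 minus LacZ differences ran from -0.17 to 1.25. Only 1 luminal marker was counted. On the array labelled both it lay 0.71 below LacZ, 0.89 below that labelled mutant PIK3CA and 0.73 below that labelled Her2. Of the other cell types, immune markers had means from 2.33 to 2.53 over 4 genes, with PTPRC at most 0.93. Within that list CD68, a lysosomal protein of macrophages and other cells, read 4.68, 4.94, 6.24 and 6.78, CD14 read 2.95, 3.24, 2.14 and 1.98, and CD3E stayed at most 1.15. The 2 measured endothelial markers had means from 1.41 to 2.73, with CDH5 at most 0.88, while KDR read 3.83, 3.57, 2.03 and 4.81. In bulk RNA, fewer cells expressing a gene and less RNA per cell cannot be told apart.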

How the data were processed

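RNA of 4 MCF10A samples, 1 array each, was read as biotin-labelled cDNA from an Affymetrix whole-transcript kit, per the labels' protocols. Per the submitters' processing notes, the authors used oligo and RMA, and the table they deposited holds 1 log2 value per probe set and array. RMA corrects background, brings arrays to 1 distribution and combines probes, which compresses differences near background. No version is given in the sources used here. That values are to base 2 was inferred from the method and their range.

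The table holds 53617 probe sets, of which the platform annotation gave 1 symbol to 23871 and several to 1842, while 27904 are unnamed here. RefSeq's GRCh38.p14 gene table renewed 90 symbols by gene identifier. Counts leave out small RNAs and the introduced genes. Differences were taken between log2 values and called at 2-fold, with no test. The counting step was checked on simulated data. Quantile and cyclic loess (3 iterations) alternatives used limma 3.58.1 in R 4.3.3. Promoter sequences are RefSeq's (GRCh38.p14), and the motifs were chosen after the values were seen.

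The members and lists were chosen with earlier results of these data known. Named are all members and, from each other list except the markers, the 2 highest and 2 lowest counted genes for both minus mutant PIK3CA. SLC1A5, SLC7A1 and PYCR1 were added after their values were seen, and EIF2AK4 for its role. Marker genes were named without this rule. Other settings tried were no filter, a value of 5 on at least 1 array, a mean of 6, the mean of all probe sets and a 1.5-fold threshold. The number of arrays limits the precision.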

Additional observations from a re-analysis of the deposited data

Results flagged for a closer look

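SLC7A11, the light chain of the cystine-glutamate exchanger, differed by more than 2-fold in opposite directions for the label Her2. It was higher on the array labelled Her2 than on LacZ by 1.29, and the difference between the arrays labelled both and mutant PIK3CA was -1.54. These pairs share no array. The difference between them was not tested, since each pair holds 1 array per side. SLC7A11 also went in opposite directions for the label mutant PIK3CA, so the pattern is not particular to the label Her2. It was 0.98 above LacZ, just short of 2-fold, and the difference between the arrays labelled both and Her2 was -1.85. No other member passed 2-fold in opposite directions for either introduced gene.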

How the results depend on the processing

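No paired analysis was possible because each group has 1 array. Of 120 values recomputed under the alternatives, 113 kept their direction and stayed near the reported value, counts within 1.5 times and medians within 0.58 log2 units, and 7 moved further. All 7 came from the 1.5-fold threshold, which asks for less. With it, members lower on the array labelled both numbered 15 against LacZ, 23 against mutant PIK3CA and 14 against Her2, and 23 lay below additivity. Against LacZ, 6 members were higher for mutant PIK3CA and 1 for both, and 1 was lower for Her2. Of all counted genes, 21.1%, 17.6% and 15.2% were lower in the first 3 of these comparisons and 19.3% lay below additivity. Against LacZ, 15.3% were higher for mutant PIK3CA and 21.8% for both, and 10.1% were lower for Her2. The median for both minus mutant PIK3CA ranged from -0.93 to -0.78. Of 47 member differences of at least 2-fold, 0 turned direction under quantile normalization. Cyclic loess gave values for 41 of them, and 0 turned. Low values, as for DDIT3 and VLDLR on every array and for ATF3 on all but that labelled mutant PIK3CA, bound the differences that can be seen.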
